A study of Drosophila melanogaster with 6 samples.

Results

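The genes described here are 55 G protein-coupled receptors of Drosophila melanogaster through which neuropeptides, biogenic amines and classical transmitters act. They were chosen by gene symbol and not by their values, although earlier results of these data were known. All 55 were found among the 17753 identifiers of the count table. They comprise 34 receptors of peptides and protein hormones, 6 of octopamine and tyramine, 4 of dopamine, 5 of serotonin and 6 slow receptors of acetylcholine, GABA and glutamate. All 55 had counts in at least 1 library and all 55 passed the filter on low counts, as did 8945 genes in all. None of them lies inside another gene. Protein-coding genes inside another protein-coding gene hold no counts in this table.

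Receptors of this kind span the membrane and pass a signal to a G protein, which then changes cyclic AMP, calcium or ion channels in the cell. In the fly head they set the state of neurons over seconds to hours, and are known for roles in sleep, feeding, courtship, the clock and memory. Most are made in small groups of neurons, and some also in glia, gut or fat body.

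The libraries came from male flies of 1 genotype, with an RNA interference construct against the UDP-glycosyltransferase gene Ugt35b under Repo-GS, a pan-glial GeneSwitch driver switched on by feeding the drug RU486. Flies received RU486 or its solvent EtOH and were sampled at day 10, with 3 libraries per group and 10 flies per library. Both groups carry the driver and the construct, and RU486-fed flies without the construct were not analysed here, so effects of the drug and of the knockdown cannot be told apart. The construct acts in glia, whereas the receptors are mainly neuronal genes. The comparison therefore asked whether receptor transcripts differ between flies fed RU486, which switches on the glial knockdown, and flies fed EtOH.

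Library totals ran from 10156909 to 12636787 counts. The target, Ugt35B1, averaged 143 ± 5.47 counts per 1000000 (CPM; SD, n = 3) under EtOH, against 98.0 ± 12.6 with RU486 (log2 fold change -0.54, SE 0.09, edgeR adjusted p = 0.00865). The labels name the tissue as head and the protocol names brains. The rhodopsin gene ninaE took 3.62% to 4.48% of each library, so eye tissue was present. Of 16 neuron markers 15 were tested and 0 were called by edgeR, with 3 at an unadjusted p under 0.05; DESeq2 called 2 lower. The neuronal gene elav had 12 counts over all 6 libraries. In bulk tissue, fewer cells of a type and less RNA per cell cannot be told apart.

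EtOH replicate 2 stood apart in these genes. Of the 55 receptors, 43 (78.2%) had their highest EtOH level in that library, compared with 33.2% of all genes tested. Summed over the 55 receptors, and without TMM factors, the level was 2804 CPM in EtOH replicate 2 and 2317 and 2492 CPM in EtOH replicates 1 and 3. It was 2406, 2420 and 2531 CPM in RU486 replicates 1 to 3, within the EtOH range. Without EtOH replicate 2, edgeR called 6 neuron markers higher and 1 lower, and 15.9% of all genes. The 16 neuron markers summed to 15204 CPM in EtOH replicate 2, 10771 and 12222 CPM in EtOH replicates 1 and 3, and 12194 to 12732 CPM in RU486. The receptors and the neuron markers were thus both highest in the same EtOH library. So were 10 muscle markers, at 5485 CPM compared with 4540 and 4471 CPM in EtOH replicates 1 and 3. The neuron markers tested had a median exonic length of 9561 bases. Tested genes with over 3725 exonic bases also had their highest median log2 deviation in EtOH replicate 2 (0.08), as described last. The part of neuronal RNA content in the receptor levels was not tested, nor was that part told apart from gene length.

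**Figure D1:**
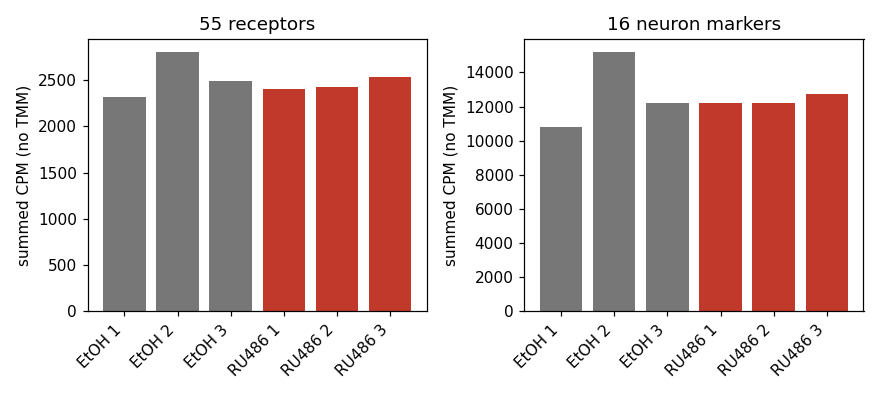
Summed level in CPM, without TMM factors, of the 55 receptors (left) and of 16 neuron markers (right) in each of the 6 libraries, with EtOH in grey and RU486 in red. EtOH replicate 2 has the tallest bar in both panels, at 2804 and 15204 CPM, and the RU486 libraries lie within the EtOH range.

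Receptor transcripts were scarce. Per 1000 exonic bases, the median receptor was at 5.70 CPM in EtOH, compared with 14.7 CPM over all genes tested. Of the 55, 28 were below the 25th percentile of tested genes on this scale and 8 were above the 50th. Summed counts over the 6 libraries ran from 85 for CapaR to 31100 for DopEcR, with a median of 1652. Receptor genes were also long, with a median exonic length of 3735 bases compared with 2193 over all genes tested.

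The order of the levels followed ligand class only in part. DopEcR, a receptor of dopamine and ecdysteroids, stood alone at the top with 112 ± 9.23 CPM per 1000 exonic bases in EtOH (SD, n = 3) and gave 18.3% of all receptor counts. GABA-B-R2, a subunit of the metabotropic GABA receptor, followed at 46.4 ± 5.75. The serotonin receptor gene 5-HT2A was at 27.9 ± 1.97 and the muscarinic receptor gene mAChR-A at 22.8 ± 2.29. Octbeta1R, an octopamine receptor that raises cyclic AMP, was at 18.4 ± 2.59 CPM per 1000 exonic bases. The highest peptide receptor was Pdfr, the receptor of the clock neuropeptide PDF, at 17.2 ± 1.67 on the same scale. From Octbeta1R down to Lgr1, at 15.5 ± 1.42, the ranges of mean ± SD of neighbouring genes overlapped.

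The 5 lowest genes in the order were all peptide receptors. CapaR, known from the renal tubules, was lowest at 0.735 ± 0.15 CPM per 1000 exonic bases in EtOH. RYa-R, a receptor of RYamide peptides, was at 1.02 ± 0.0457, and CCAP-R, of crustacean cardioactive peptide, at 1.09 ± 0.325. Lgr3, a receptor of the relaxin-like peptide Ilp8, was at 1.49 ± 0.356, and Lkr, the leucokinin receptor, at 1.59 ± 0.276. The mean ± SD ranges of CapaR and RYa-R did not overlap, whereas those of each later pair of neighbours did. By class, the median was 15.7 for the classical transmitter receptors, 7.88 for dopamine, 6.84 for octopamine and tyramine, 6.66 for serotonin and 3.55 for peptide receptors.

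**Figure D2:**
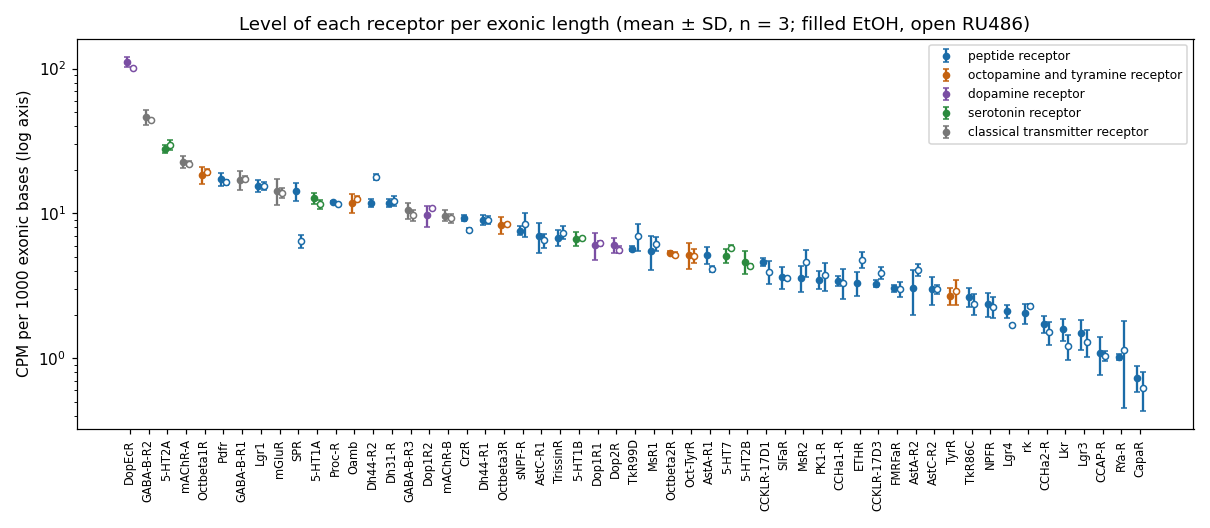
Level of each of the 55 receptors in CPM per 1000 exonic bases on a log axis, as mean ± SD of 3 libraries, filled for EtOH and open for RU486, coloured by ligand class and ordered by the EtOH mean. Levels fall from 112 for DopEcR to 0.735 for CapaR, and the widest gaps between filled and open points are those of SPR (2.21-fold), Dh44-R2 (1.51-fold) and ETHR (1.45-fold).

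Between the groups, 2 of the 55 receptors passed the test, 1 lower and 1 higher in RU486. SPR, the receptor of sex peptide and of myoinhibitory peptides, fell 2.21-fold, and Dh44-R2, a receptor of the diuretic hormone DH44, rose 1.51-fold. The 2 calls are 3.64% of the receptors, compared with 7.64% of all genes tested (4.36% higher and 3.28% lower). A gene was called at an edgeR adjusted p under 0.05 over all genes tested. At an unadjusted p under 0.05 there were 5 receptors, or 9.09%, compared with 22.3% of all genes. The 3 RU486 libraries lay wholly below the 3 EtOH libraries for 5 receptors (background 13.5% of genes) and wholly above for 3 (background 13.9%), together 14.5% of the receptors and 27.3% of all genes. None of these counts was above the background of the comparison.

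Over all 55 receptors, log2 fold changes lay on both sides of 0, with 30 receptors below and 25 above and a median of -0.02 (all genes tested, 0.0028). The median was 0.06 without EtOH replicate 2 and -0.08 without EtOH replicate 1. They were within 0.1 of 0 for 27 receptors, or 49.1%, compared with 37.7% of all genes tested. Of the 53 receptors that were not called, 51 had a 95% interval, not adjusted for the number of genes, that lay within a 2-fold change of no difference, and 41 had one within a 1.5-fold change. The other 2 were CapaR, at -1.05 to 0.56, and RYa-R, at -0.74 to 1.05, whose intervals each passed a 2-fold change on 1 side.

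**Figure D3:**
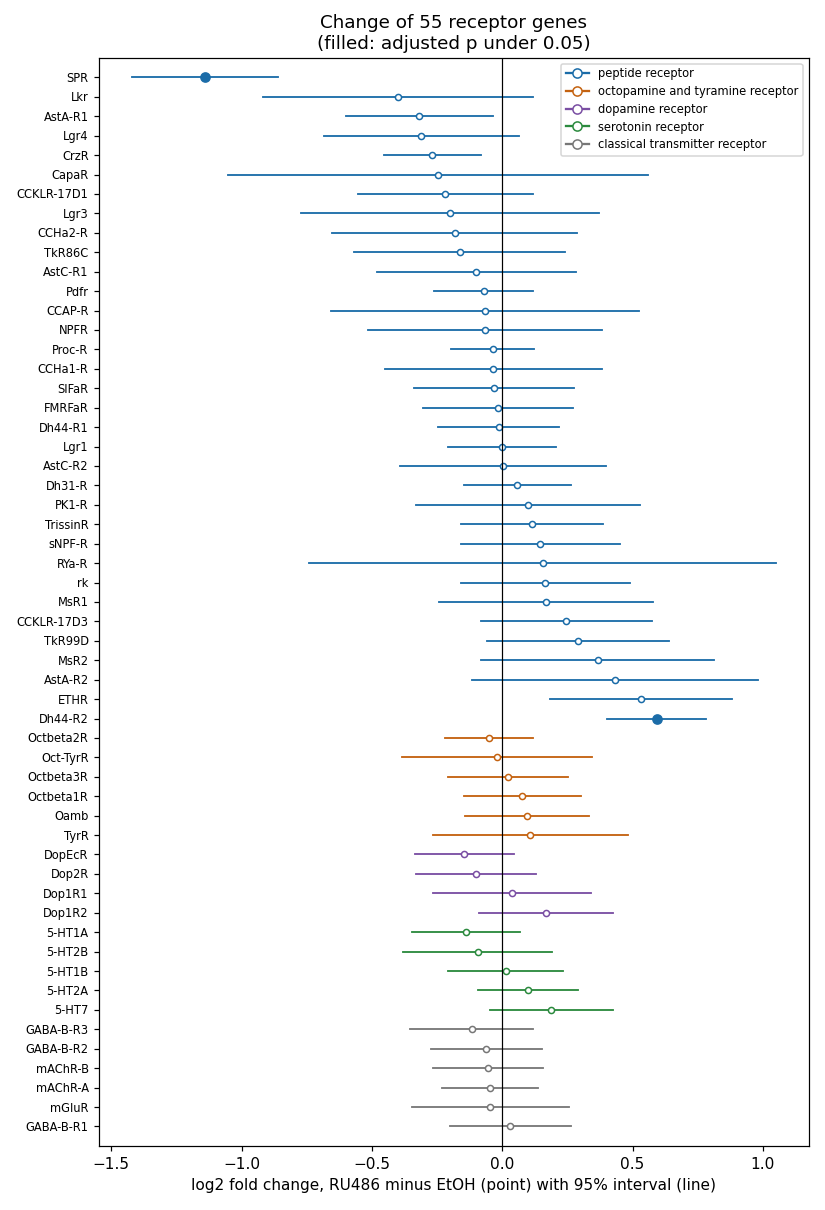
Log2 fold change of each receptor, RU486 minus EtOH, with its unadjusted 95% interval, in blocks by ligand class; filled points passed an adjusted p under 0.05. SPR at -1.14 and Dh44-R2 at 0.59 are the filled points, and the amine and classical transmitter receptors lie between -0.15 and 0.19.

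SPR (FBgn0029768, chromosome X, 5446656 to 5494012, plus strand, build BDGP6.54) was first described as the receptor through which sex peptide changes the behaviour of mated females. In both sexes it also serves the myoinhibitory peptides encoded by Mip. The levels in EtOH were 44.9, 60.1 and 54.0 CPM in replicates 1 to 3, and those in RU486 22.8, 26.8 and 22.4 CPM. The highest RU486 library was well below the lowest EtOH library. The means were 53.0 ± 7.67 and 24.0 ± 2.45 CPM (SD, n = 3), and the difference passed (log2 fold change -1.14, SE 0.12, adjusted p = 0.000790). Omitting any 1 library kept SPR called, at -1.27 to -1.04.

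SPR shares 26.8% of its exonic bases with frma, a gene on the opposite strand, and the strand setting of the counting is not given in the sources used here. For frma the means were 43.2 ± 4.73 and 41.8 ± 6.02 CPM (log2 fold change -0.05, SE 0.12, adjusted p = 0.865). Of the ligands, Mip was at 67.9, 71.1 and 90.3 CPM in EtOH and 56.0, 59.0 and 57.6 CPM in RU486. Every RU486 library was below every EtOH library for Mip too, but the difference did not pass (log2 fold change -0.41, SE 0.11, adjusted p = 0.0574). The sex peptide gene SP, made in the male accessory gland, had 2 counts in all 6 libraries.

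Dh44-R2 (FBgn0033744, chromosome 2R, 12474424 to 12487986, plus strand) is a receptor of DH44, the fly relative of corticotropin-releasing factor, and raises cyclic AMP. It was at 35.7, 40.5 and 40.2 CPM in EtOH replicates 1 to 3 and at 58.2, 61.3 and 55.8 CPM in RU486. The groups were far apart relative to their spread, with means of 38.8 ± 2.68 and 58.5 ± 2.76 CPM. The difference passed (log2 fold change 0.59, SE 0.08, adjusted p = 0.00297), and omitting any 1 library kept it called, at 0.52 to 0.62. Dh44-R1, the other DH44 receptor, did not pass, at 22.4 ± 1.90 and 22.2 ± 1.42 CPM, a log2 fold change of -0.01 with a 95% interval from -0.24 to 0.22. The ligand gene Dh44 averaged 93.6 ± 5.34 and 88.7 ± 8.73 CPM (adjusted p = 0.658).

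Dh44-R2 shares 33.2% of its exonic bases with 2 genes on the opposite strand. Of these, fdl was at 106 ± 3.43 and 102 ± 6.59 CPM (adjusted p = 0.679). CG34234 lies inside Dh44-R2 and had 0 counts, as did all 1818 protein-coding genes inside another, so its level is unknown. Without a known strand setting, reads of the shared bases cannot be assigned to 1 gene. Nepl10, which ends 402 bases before the start of Dh44-R2 on the same strand, fell by 0.74 on the log2 scale (SE 0.18, adjusted p = 0.0385).

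Dh44-R2 is also known from the gut, and gut transcripts were uneven among the RU486 libraries. The 10 gut markers listed summed to 64.4 to 73.7 CPM in EtOH and to 58.1, 7006 and 717 CPM in RU486 replicates 1 to 3, with 2 of 7 tested called higher and none at 0. In RU486 replicate 1, with gut markers at the EtOH level, Dh44-R2 was at 58.2 CPM and SPR at 22.8 CPM, close to the other RU486 libraries. Glial markers summed to 4163 to 4360 CPM in EtOH and 4081 to 4452 CPM in RU486. Of 9 tested, 3 were lower (wrapper, Gat and zyd) and 2 higher (Mdr65 and bdl). The glial markers alrm and moody had 0 counts, which is not read as a lack of expression. The part of gut transcripts in the rise of Dh44-R2 and that of glial transcripts in the fall of SPR were not tested.

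Of the other 3 receptors at an unadjusted p under 0.05, none was called. ETHR, the receptor of ecdysis triggering hormone, which also acts on juvenile hormone production in adults, was at 13.5, 18.1 and 13.2 CPM in EtOH and 22.9, 18.5 and 23.5 CPM in RU486. The groups were barely apart, RU486 replicate 2 lying just above EtOH replicate 2, and the difference did not pass (log2 fold change 0.53, SE 0.15, adjusted p = 0.0722). ETHR passed without EtOH replicate 2 (0.0153), with edgeR's robust prior (0.0416, where 9.14% of all genes were called) and with the DESeq2 Wald test (0.0281, where 9.75% were), and its adjusted p ranged up to 0.254 over all alternatives. CrzR, the receptor of the stress peptide corazonin, was at 30.7, 28.3 and 31.3 CPM in EtOH and 24.2, 25.9 and 25 CPM in RU486 (log2 fold change -0.27, SE 0.08, adjusted p = 0.0877). The groups did not overlap. CrzR passed without EtOH replicate 2 (0.0343), and its adjusted p ranged up to 0.267. AstA-R1, a galanin-like receptor of allatostatin A, was at 16.2, 20.7 and 20.6 CPM in EtOH and 16, 15.5 and 14.6 CPM in RU486 (log2 fold change -0.32, SE 0.12, adjusted p = 0.172). Its groups were separated only narrowly, RU486 replicate 1 lying just below EtOH replicate 1.

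**Figure D4:**
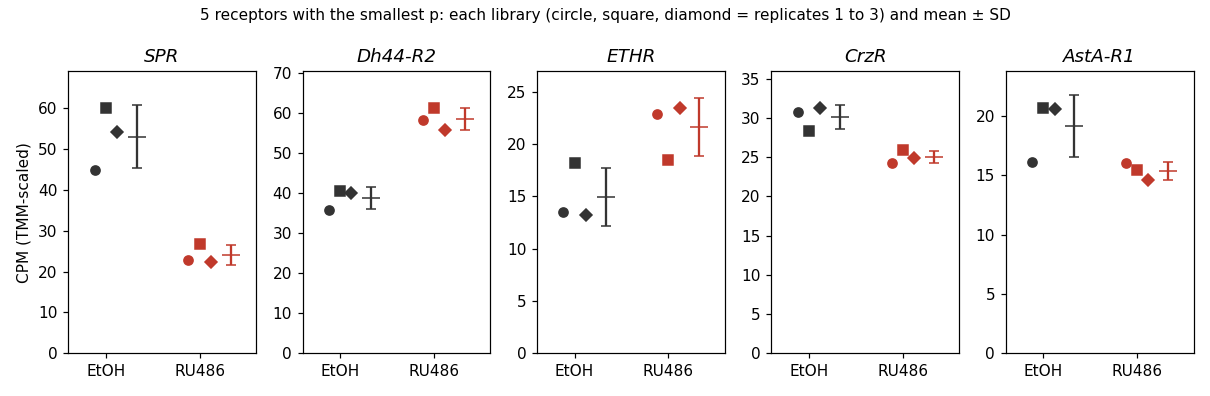
TMM-scaled CPM in each library for the 5 receptors with the smallest p, with circle, square and diamond for replicates 1 to 3 of each group and the mean ± SD of 3 libraries beside them. SPR falls from 53.0 to 24.0 CPM and Dh44-R2 rises from 38.8 to 58.5 CPM with wide gaps between groups, whereas ETHR, CrzR and AstA-R1 have narrow gaps.

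Without EtOH replicate 2, the library in which most receptors were high, edgeR called 5 receptors, as CrzR, ETHR and Dop1R2 passed beside SPR and Dh44-R2. In that fit 15.9% of all genes were called. Dop1R2, a dopamine receptor of the mushroom body, was at 46.2, 59.6 and 44.6 CPM in EtOH and 55.2, 56.7 and 57.1 CPM in RU486. The groups overlapped only through EtOH replicate 2, and the log2 fold change was 0.17 (adjusted p = 0.438) with all libraries and 0.31 (adjusted p = 0.0273) without it.

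The peptide receptors had the widest range of the classes, with log2 fold changes from -1.14 to 0.59 and a median of -0.02. Receptors of the same peptide did not always have the same sign. AstA-R2, the other receptor of allatostatin A, had a log2 fold change of 0.43 (SE 0.24, adjusted p = 0.340), opposite in sign to AstA-R1. The cholecystokinin-like receptor genes CCKLR-17D1 and CCKLR-17D3, 37910 bases apart on chromosome X, had values of -0.22 (SE 0.15) and 0.25 (SE 0.14). The myosuppressin receptor genes MsR2 and MsR1, 21748 bases apart on chromosome 3L, had values of 0.37 (SE 0.20) and 0.17 (SE 0.18). The tachykinin receptor genes TkR99D and TkR86C had values of 0.29 (SE 0.15) and -0.16 (SE 0.18). None of these 8 genes was called, and no difference between members of a pair was tested.

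Among the leucine-rich repeat receptors, Lgr1, the receptor of a glycoprotein hormone, averaged 49.9 ± 4.57 CPM under EtOH and 49.9 ± 2.93 with RU486. Lgr4 had a log2 fold change of -0.31 (SE 0.16), Lgr3 of -0.20 (SE 0.25) and rk, the bursicon receptor, of 0.17 (SE 0.14). The feeding-related receptor genes sNPF-R and NPFR, relatives of the neuropeptide Y receptors, had values of 0.15 (SE 0.13) and -0.06 (SE 0.20). Lkr had the second largest negative log2 fold change of the 55, -0.40, with an SE of 0.23 (adjusted p = 0.354). Proc-R, the proctolin receptor, had the smallest SE of the peptide receptors, 0.07, at a log2 fold change of -0.04. The remaining peptide receptors, namely AstC-R1, AstC-R2, CCAP-R, CCHa1-R, CCHa2-R, CapaR, Dh31-R, FMRFaR, Pdfr, PK1-R, RYa-R, SIFaR and TrissinR, lay between -0.25 and 0.15 and were not called.

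Receptors of octopamine and tyramine, the insect counterparts of noradrenaline, varied little. The 6 genes had log2 fold changes from -0.05 for Octbeta2R to 0.11 for TyrR, with a median of 0.05. In this class, as in the serotonin, dopamine and classical transmitter classes, edgeR and DESeq2 called 0 genes and 0 had an unadjusted p under 0.05. Oamb, which raises calcium, averaged 65.6 ± 9.72 CPM under EtOH and 70.1 ± 2.45 with RU486. Octbeta1R was at 99.6 ± 14.0 and 105 ± 4.88 CPM, Octbeta3R at 50.7 ± 6.71 and 51.5 ± 1.05 CPM, and Oct-TyrR at 19.1 ± 3.89 and 18.9 ± 2.08 CPM. Their 95% intervals reached no further than -0.38 and 0.48.

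Of the 4 dopamine receptors none was called. DopEcR was at 445, 523 and 471 CPM in EtOH and 439, 426 and 435 CPM in RU486. Every RU486 library was below every EtOH library, by a small margin, and the difference did not pass (log2 fold change -0.15, SE 0.08, adjusted p = 0.357). Dop1R1, a receptor needed for memory formation, had a value of 0.04 (SE 0.13) and Dop2R, the inhibitory dopamine receptor, of -0.10 (SE 0.10).

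The 5 serotonin receptors had log2 fold changes between -0.14 for 5-HT1A and 0.19 for 5-HT7, and none was called. 5-HT2A, the most abundant of them per exonic length, averaged 151 ± 10.7 CPM under EtOH and 161 ± 12.6 with RU486. 5-HT1A and 5-HT1B, both inhibitory and 34512 bases apart on chromosome 2R, had values of -0.14 (SE 0.09) and 0.01 (SE 0.10), and 5-HT2B of -0.09 (SE 0.13).

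The slow receptors of classical transmitters had log2 fold changes from -0.12 for GABA-B-R3 to 0.03 for GABA-B-R1. GABA-B-R1 and GABA-B-R2, which form the functional GABA-B receptor together, were at 95.9 ± 14.5 and 185 ± 22.9 CPM in EtOH and 98.0 ± 3.95 and 177 ± 2.57 CPM in RU486. mGluR, the metabotropic glutamate receptor, was at 90.9 ± 18.3 and 88.0 ± 7.20 CPM. The muscarinic receptor genes mAChR-A and mAChR-B had log2 fold changes of -0.05 (SE 0.08) and -0.06 (SE 0.09). For all 6 receptors of this class the SD was larger in EtOH than in RU486, and EtOH replicate 2 held the highest EtOH value.

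The ligands of these receptors were listed too. Of 35 ligand genes listed, 25 were tested, with a median log2 fold change of -0.25. By edgeR 6 fell and 0 rose, and 10 had an unadjusted p under 0.05. Over all genes tested, edgeR called 3.28% lower and 4.36% higher, and 22.3% had an unadjusted p under 0.05. DESeq2 called 7 ligand genes lower and 1 higher. The 6 that fell by edgeR were SIFa, Pdf, Trissin, CCHa2, CCAP and AstC, and none of their 7 receptors was called. SIFa, a peptide of few neurons known for roles in courtship and appetite, went from 11.8, 12.9 and 10.3 CPM to 4.73, 6.35 and 4.64 CPM, and shares 21.1% of its exonic bases with Start1 on the opposite strand. Its log2 fold change was -1.15 (95% interval -1.55 to -0.76), while that of SIFaR was -0.03 (-0.34 to 0.27). For Pdf the log2 fold change was -0.69 (-0.91 to -0.47) and for Pdfr -0.07 (-0.26 to 0.12). For Trissin it was -0.58 (-0.83 to -0.34) and for TrissinR 0.11 (-0.16 to 0.39). For CCAP, which had 72 counts in all, it was -2.69 (-4.04 to -1.33) and for CCAP-R -0.07 (-0.66 to 0.53). In these 4 pairs the intervals of ligand and receptor did not overlap, whereas those of AstC and CCHa2 overlapped with those of their receptors.

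In SPR and Dh44-R2 the order was the reverse, since the receptor was called and the ligand was not. For SPR this turned on the threshold. Its ligand Mip had a log2 fold change of -0.41 (edgeR adjusted p = 0.0574), and AstC, which was called, had -0.41 (0.0434). No ligand was set against its receptor in a test. Omitting EtOH replicate 3 left 2 ligands called lower, and omitting EtOH replicate 1 or RU486 replicate 2 left 3 each. SIFa and Pdf kept their call whichever library was omitted. The ligand genes are short, with a median exonic length of 1249 bases. The peptide genes Hug and Lk had 0 counts, but each lies inside another protein-coding gene, where this table holds no counts. Dsk and ETH also had 0, and each lies inside a non-coding gene on the opposite strand. Counts of genes nested in that way were not tallied. Gpa2, placed on an unmapped scaffold, also had 0. None of these zeros is read as a lack of expression.

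**Figure D5:**
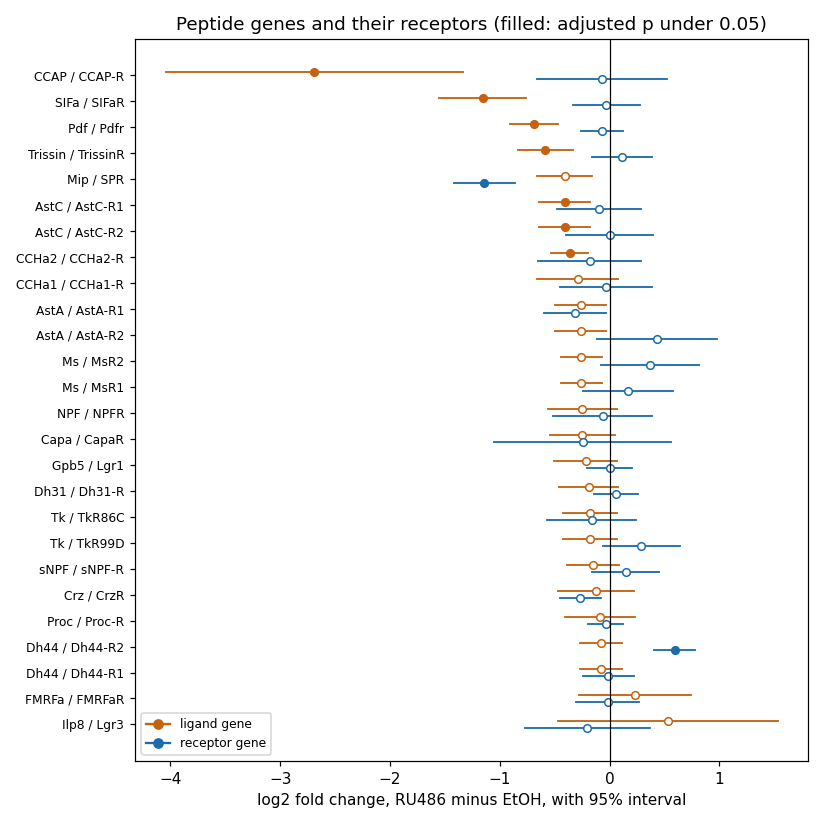
Log2 fold change, RU486 minus EtOH, with unadjusted 95% intervals, of each tested peptide gene (orange) and its receptor gene (blue), ordered by the ligand value; filled points passed an adjusted p under 0.05. The 6 called ligands lie left of 0 beside receptors with open points, and SPR and Dh44-R2 are the filled receptors.

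Of 14 genes that process or degrade peptides, 2 rose and 0 fell (of all genes tested, 4.36% and 3.28%). Nep4, a neprilysin that degrades peptides outside the cell, was at 317, 266 and 348 CPM in EtOH and 667, 683 and 602 CPM in RU486 (log2 fold change 1.07, SE 0.11, adjusted p = 0.000618). Nep3, of the same family, rose from 143 ± 5.43 to 190 ± 2.23 CPM (adjusted p = 0.00570). Both kept their call whichever library was omitted. The prohormone convertase gene amon (log2 fold change -0.12, SE 0.08) and the amidating enzyme gene Phm (-0.06, SE 0.09) did not pass.

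Genes downstream of the receptors were mostly not called. Of 36 genes for G proteins and effectors, 2 rose and 2 fell (of all genes tested, 4.36% and 3.28%). Their median log2 fold change was 0.04. Pka-C3, a catalytic subunit of protein kinase A, rose from 146 ± 6.85 to 185 ± 10.5 CPM. CrebA, a transcription factor best known for secretory pathway genes, rose from 53.2 ± 3.34 to 92.9 ± 5.59 CPM. Irk3, an inward rectifier potassium channel gene, fell by 0.55 (SE 0.11) on the log2 scale. CrebA kept its call whichever library was omitted. Irk3 did not pass without EtOH replicate 3, RU486 replicate 1 or RU486 replicate 3 (edgeR adjusted p = 0.0549 to 0.0650). Pka-C3 did not pass without EtOH replicate 1 or any RU486 replicate (0.0606 to 0.110). Ggamma30A, which is abundant in photoreceptors, had a log2 fold change of -0.20 (SE 0.05) at an adjusted p of 0.0496. It did not pass with the replicate block (0.0853), the robust prior (0.0697), DESeq2 (0.0736), limma-voom (0.128), no filter (0.111), the length offset described last (0.0769, at -0.42) or when any library but EtOH replicate 2 was left out (0.0796 to 0.353). The G protein alpha subunit genes Galphas (-0.08, SE 0.08), Galphaq (-0.21, SE 0.11), Galphao (-0.14, SE 0.10) and Galphai (0.38, SE 0.11, adjusted p = 0.0822) did not pass. Without EtOH replicate 2 there were 8 higher and 4 lower in this list, where 15.9% of all genes were called. Without EtOH replicate 1 there were 1 and 1, without EtOH replicate 3 there were 2 and 0, without RU486 replicates 1 or 3 there were 1 and 0, and without RU486 replicate 2 there were 1 and 1. Among 7 genes of receptor desensitisation, 1 rose (of all genes tested, 4.36%). This was loco, a regulator of G protein signalling also known from glia, which went from 64.3 ± 0.902 to 81.7 ± 3.48 CPM (adjusted p = 0.0145). Omitting EtOH replicate 1, EtOH replicate 3, RU486 replicate 1 or RU486 replicate 2 left 0 called, and omitting EtOH replicate 2 gave 2 higher and 1 lower; the length offset described last also left 0. Neither krz, the non-visual arrestin gene, nor the receptor kinase gene Gprk2 was called (adjusted p = 0.752 and 0.106).

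Synthesis and transport of the amines and transmitters had 1 of 16 genes lower and 0 higher (of all genes tested, 3.28% and 4.36%). That gene was Gat, the glial GABA transporter, which fell by 1.92 on the log2 scale (SE 0.10). Gad1, which makes GABA (-0.31, SE 0.08, adjusted p = 0.0584), and the dopamine transporter gene DAT (-0.34, SE 0.10, adjusted p = 0.0756) did not pass. The number lower was 2 without EtOH replicate 1 and 3 without EtOH replicate 2, where 1 was higher. It was 4 with DESeq2, 3 with limma-voom or upper-quartile factors, 2 with the robust prior or library size alone, and 5 with the length offset described last.

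Outside the 55, 7 further receptors of the same kind were tested. Of these, 1 was called higher and 1 lower (of all genes tested, 4.36% and 3.28%). The changes of these 2 were larger than that of Dh44-R2. AdoR, the adenosine receptor, was at 9.00, 5.31 and 9.84 CPM in EtOH and 35.1, 40.7 and 37.7 CPM in RU486 (log2 fold change 2.22, SE 0.19, adjusted p = 0.000306). AdoR shares 60.1% of its exonic bases with an antisense RNA gene, and without a known strand setting their reads cannot be told apart. AkhR, the receptor of adipokinetic hormone, which acts mainly in fat body, was at 97.6, 96.2 and 82.2 CPM in EtOH and 56.6, 53.5 and 54.3 CPM in RU486 (log2 fold change -0.75, SE 0.08, adjusted p = 0.000918). Both kept their call whichever library was omitted. Of 8 fat body markers tested, 6 were lower and 0 higher (2 lower without EtOH replicate 1 or any RU486 replicate, 4 without EtOH replicate 3), and the 10 listed summed to 10292 to 11005 CPM in EtOH and 8378 to 8676 CPM in RU486. Lsp2 and Fbp1 had 16 and 12 counts in all. The part of fat body transcripts in the fall of AkhR was not tested.

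Long genes differed between libraries. Of the 55 receptors, 29 were among the 2217 tested genes with over 3725 exonic bases. The median log2 deviation of those 2217 from each gene's mean was -0.12, 0.08 and -0.11 in EtOH replicates 1 to 3 and between 0.03 and 0.05 in RU486. The groups overlapped, since EtOH replicate 2 was above every RU486 library. With an offset for this trend, the median log2 fold change of the receptors went from -0.02 to -0.08 and that of all genes to -0.02, and the same 2 receptors were called.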

How the data were processed

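Per the file headers, the authors deposited unnormalised counts for FlyBase genes in 1 column per library. Build BDGP6 is named in the submitters' processing notes. For aligner, counter, strand setting and annotation release, nothing is stated in the sources used here. Of 1818 protein-coding genes lying inside another protein-coding gene, 1818 had no count, so a 0 there says nothing about expression.

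Symbols came from a reference table of gene names (17626 of 17753 identifiers matched), and coordinates and exonic lengths from Ensembl release 115 (BDGP6.54). The tests used edgeR 4.0.16 under R 4.3.3 (filterByExpr, minimum count 10; TMM; two-sided quasi-likelihood test; Benjamini-Hochberg over 8945 genes; call at adjusted p under 0.05) and were checked on simulated data. The SE is the log2 fold change divided by the root of F. CPM use TMM factors unless stated. Alternatives were DESeq2 1.42.0, limma-voom (limma 3.58.1), other size factors and filters, a robust prior, removal of the 10 most abundant genes, an offset for exonic length, a replicate block, other thresholds and leaving out each library.

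All receptors at an unadjusted p under 0.05 are given in full, the others by class, and in other lists the called genes and those with small p. The receptors and lists were chosen with earlier results of these data known; Dop1R2 and the pairs of related receptors were named after their values were seen. The labels do not say that libraries of a group came from separate cultures; the p-values reflect only how far libraries differ, which may be technical.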

Additional observations from a re-analysis of the deposited data

How the results depend on the processing

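SPR remained called lower and Dh44-R2 called higher under all 19 alternatives, with log2 fold changes from -1.27 to -1.04 and from 0.52 to 0.62. The number of receptors called higher went from 1 to 2 with the robust prior, the DESeq2 Wald test or a threshold of 0.1, and the number called lower from 1 to 2 at 0.1. Leaving out 1 library gave 1 to 3 higher and 1 to 2 lower, with 3 and 2 without EtOH replicate 2, and the cause was not tested. Over all genes, 683 were called, 321 at a threshold of 0.01 and 1114 at 0.1, as these thresholds are stricter and looser, and from 341 (without EtOH replicate 3) to 1441 (without EtOH replicate 2) when 1 library was left out. The 53 receptors not called gave 1007 values under the alternatives, of which 70 had the other sign and 7, from 3 receptors, passed. The called genes of the other lists gave 304 values, of which 46 did not pass and 0 were reversed. With the replicate block, 1 receptor was called higher and 1 lower, as without it. The same-numbered libraries of the groups had correlations of 0.12, 0.27 and -0.04 in their deviations, so the numbers were not taken as pairs, and not every library correlated best with its own number. Depth limits the scarcest receptors, with 85 counts in all for CapaR.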
